A study of Mus musculus with 17 samples.

Results

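The genes described here encode the nuclear subunits of the mitochondrial respiratory chain and of ATP synthase. They were taken by name as every gene with a probe set of its own whose symbol begins with Ndufa, Ndufb, Ndufc, Ndufs or Ndufv, is Sdha to Sdhd or Cyc1, or begins with Uqcr, Cox4 to Cox8 or Atp5, with assembly factors left out. This gave 83 of the 19938 genes tested. By complex there were 36 genes of complex I, 4 of complex II, 9 of complex III, 17 of complex IV and 17 of complex V. Ndufa4, now assigned to complex IV, was counted with complex I by its symbol.

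Affymetrix Mouse Gene 1.0 ST arrays were hybridised with RNA of 12 mammary tumours and 5 normal mammary glands of mice on a mixed strain background, and levels are given as log2 values. The 9 Rb/p53 tumours lacked Rb1 and Trp53 per the labels. Cre recombinase was driven by the promoter of mouse mammary tumour virus (MMTV-Cre) in 7 of them and from an adenovirus with the CMV promoter (Ad-Cre) in 2. MMTV-Cre replicate 1 was from a nulliparous host, replicate 2 from a parous host, and replicates 3 to 7 and both Ad-Cre tumours were transplants. The 3 p53 tumours carried MMTV-Cre and lacked p53 alone per the labels, which do not give their hosts. The 5 normal samples were taken from Rb/p53 model mice, so no normal tissue of the p53 model was compared, and the labels do not say whether these mice carried Cre. Ages were not given in the labels. Tumours were described as independent.

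Several arrays limit what follows. For p53 replicate 3 the labels conflict: its title points to the Rb/p53 model, and all its other labels to loss of p53 alone, so it was kept with the p53 tumours. Rb1 lay at 9.29 to 9.92 in the Rb/p53 tumours, at 9.93, 11.00 and 10.27 in p53 replicates 1 to 3, and at 10.93 to 11.50 in normal tissue. The Rb/p53 tumours lay below all other arrays, by a small step from p53 replicate 1, and p53 replicate 2 lay inside the normal range. In limma Rb1 was lower than in normal tissue in Rb/p53 tumours (-1.67, adjusted p = 7.74e-07) and also in p53 tumours (-0.81, adjusted p = 0.0124). Between the 2 tumour groups Rb1 was not called (-0.86, adjusted p = 0.112). The array of p53 replicate 2 correlated less with the others (r 0.888 to 0.915 over all probe sets) and had a narrower spread of values (interquartile range 2.39 against 2.91 to 3.18). Some results that rest on either array are given with and without it.

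Complexes I to IV pass electrons from NADH and succinate to oxygen, and complexes I, III and IV pump protons across the inner mitochondrial membrane as they do so. Complex V, the ATP synthase, lets the protons back in and makes ATP. Most subunits are encoded in the nucleus and must be made in step with the few encoded by mitochondrial DNA. Some subunits of complex IV have isoform genes used mainly in muscle and brown fat, tissues dense in mitochondria.

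In every complex, subunit genes fell in Rb/p53 tumours relative to normal mammary tissue. Of the 83 genes 36 fell and 1 rose (limma, Benjamini-Hochberg adjusted p below 0.05 over all genes), against 13.4% of all genes called lower and 14.2% called higher. The median log2 difference of the 83 genes was -0.26, beside 0.03 over all genes. Of the 83 genes 75 lay below 0, as did 8748 of all 19938. In complex I 16 of 36 genes fell, with a median of -0.26. In complex II 2 of 4 fell (median -0.30), and in complex III 6 of 9 fell (median -0.49). In complex IV 6 of 17 fell (median -0.24), and in complex V 6 of 17 fell and 1 rose (median -0.17). Of the 36 genes that fell, 19 did so by at least 0.5 on the log2 scale. With the 2 tumours of primary hosts as the only Rb/p53 tumours, 5 genes were called lower and 0 higher. The share of all genes called in that fit is not given here. All 9 Rb/p53 tumours lay below all 5 normal samples in 17 genes and above them in 0, where 8.31% of all genes were separated downward and 7.9% upward. In bulk tissue, fewer cells of a type and less RNA per cell cannot be told apart.

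**Figure D1:**
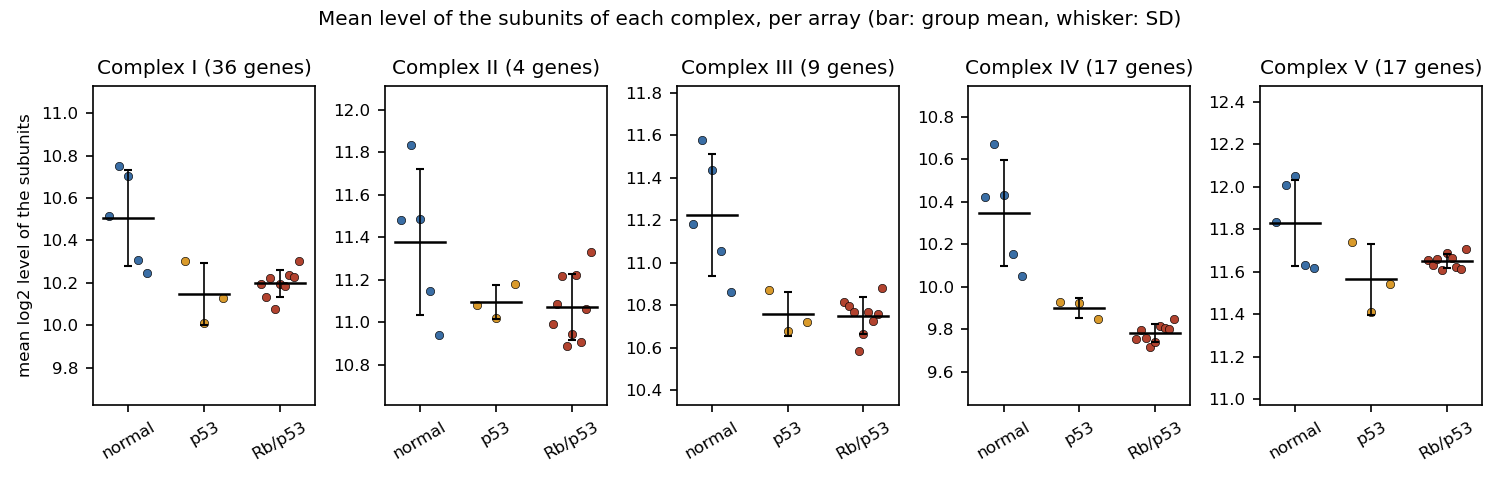
Mean log2 level of the subunit genes of complexes I to V in each array, with normal tissue (n = 5), p53 tumours (n = 3) and Rb/p53 tumours (n = 9) side by side. Bars are group means and whiskers SD; the vertical axes share 1 span but not 1 origin. In complex IV, with its tissue isoforms included, every tumour lies below every normal sample, while in complex V the Rb/p53 tumours sit at 11.61 to 11.71, level with normal replicates 4 and 5.

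The level of a complex, taken as the mean log2 value of its genes on an array, showed how evenly the tumours had settled. For complex I it was 10.52, 10.75, 10.70, 10.31 and 10.25 in normal replicates 1 to 5, 10.30, 10.01 and 10.13 in p53 replicates 1 to 3, and 10.08 to 10.30 (mean 10.20 ± 0.06, SD, n = 9) in Rb/p53 tumours. The highest tumours lay above normal replicate 5, the lowest normal sample. For complex III it was 11.18, 11.58, 11.44, 11.06 and 10.86 in normal tissue, 10.87, 10.68 and 10.72 in p53 tumours and 10.58 to 10.88 in Rb/p53 tumours. Again only normal replicate 5 was as low as a tumour. For complex IV every tumour lay below every normal sample with all 17 genes, but not without its 7 tissue isoforms: the mean of the other 10 genes was 11.81 or more in normal replicates 1 to 3, 11.44 and 11.35 in replicates 4 and 5, 11.68, 11.49 and 11.52 in p53 tumours and 11.33 to 11.53 in Rb/p53 tumours. The median SD of a single gene was 0.17 among the Rb/p53 tumours, 0.23 among the p53 tumours and 0.24 among the normal samples, and the SD was larger in normal tissue than in Rb/p53 tumours for 63 of the 83 genes. Other genes of like brightness (4834 with a mean at or above the lower quartile of the 83) did not share this order in Rb/p53 tumours. Their mean was 10.56 to 10.64 in normal tissue and 10.72 to 10.81 in Rb/p53 tumours. In p53 replicates 1 to 3 it was 10.65, 10.25 and 10.76, so in replicate 2 these other genes were also lower than in normal tissue.

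**Figure D2:**
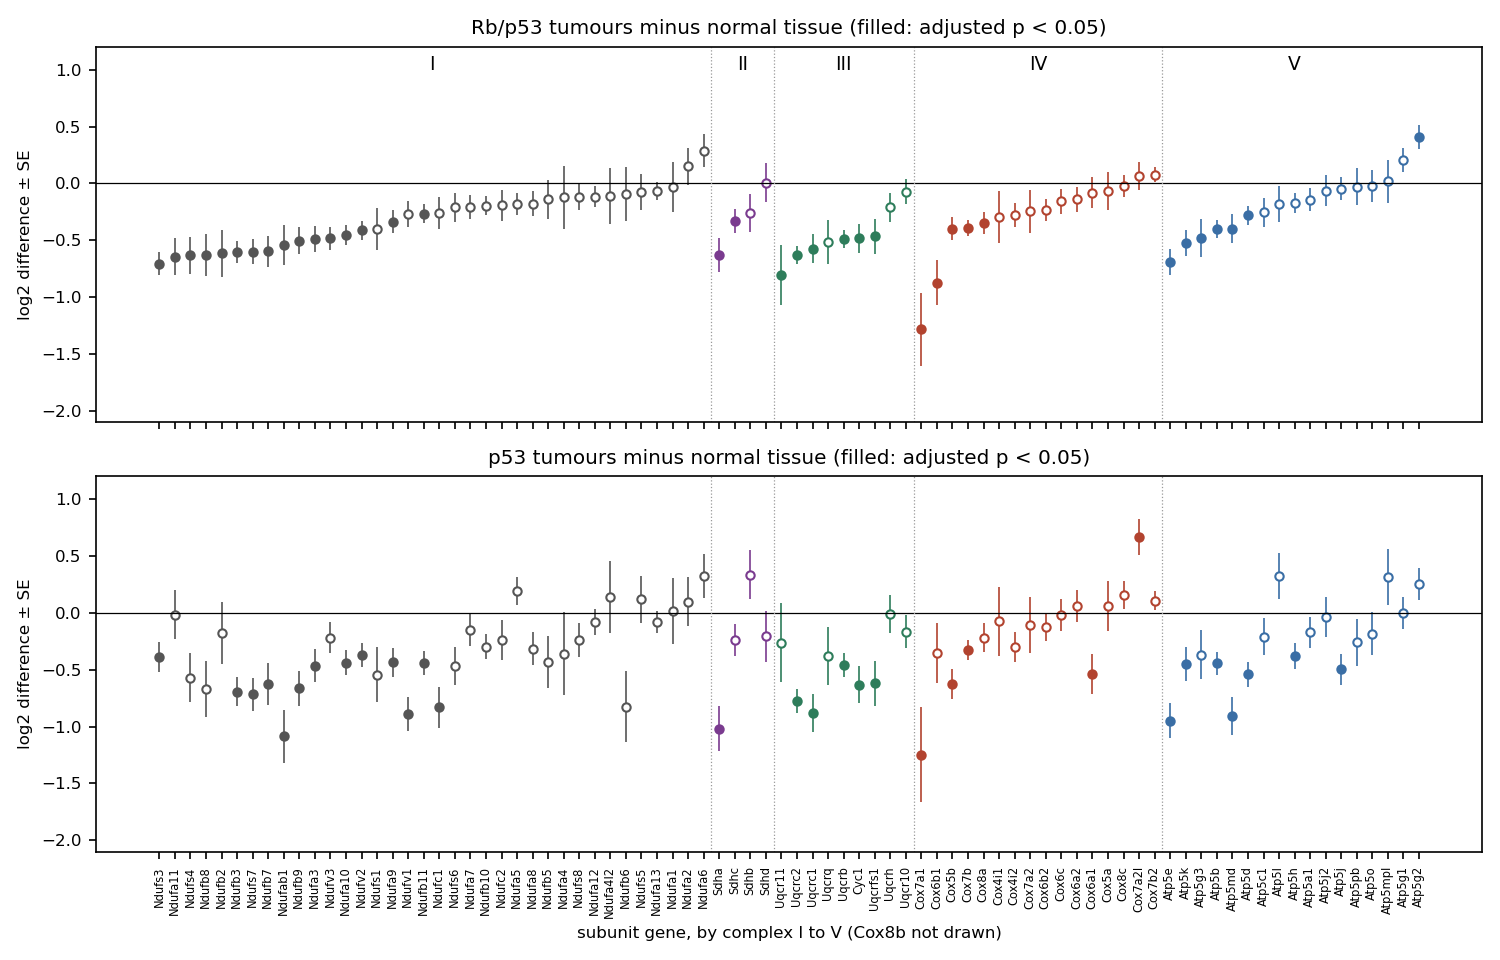
Log2 difference from normal tissue, with its SE, for 82 subunit genes grouped by complex, in Rb/p53 tumours (upper panel) and p53 tumours (lower panel, same gene order); filled points have an adjusted p below 0.05. Cox8b, at -4.92 and -4.71, is left out so that the others can be read. Atp5g2 in the upper panel and Cox7a2l in the lower are the only filled points above 0.

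Promoter sequence was set beside the values because genes of the chain are known to share binding sites for nuclear respiratory factors. RefSeq windows of 300 bases (GRCm38.p6, 250 before to 50 after the start) were held for 67 of the 83 genes. On either strand, the ETS or GABP motif CCGGAAG was found in 17 of 67 (25.4%, against 9.93% of all 27025 genes with a window), and the NRF1 core TGCGCA in 17 (25.4% against 8.79%). The YY1 motif CCATNTT was found in 19 (28.4% against 18.2%) and the ERR motif AAGGTCA in 7 (10.4% against 5.38%). Among the 31 genes that fell in Rb/p53 tumours and had a window, these motifs were in 8, 5, 9 and 4, and among the other 36 in 9, 12, 10 and 3, in the same order. A match is only a run of letters and not a measured site.

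The following 5 windows show the subunit 8 isoform pair, which differed most, then a core gene of complex I and one of complex III that fell, and the c subunit gene that rose. Each runs 5′ to 3′ on the gene's strand, and capitals mark matches to these motifs. Cox8a lies at chr19:7217567-7217866 (minus strand), Cox8b at chr7:140900397-140900696 (minus), Ndufs3 at chr2:90904672-90904971 (minus), Uqcrc1 at chr9:108936398-108936697 (plus) and Atp5g2 at chr15:102670998-102671297 (minus).
Cox8a: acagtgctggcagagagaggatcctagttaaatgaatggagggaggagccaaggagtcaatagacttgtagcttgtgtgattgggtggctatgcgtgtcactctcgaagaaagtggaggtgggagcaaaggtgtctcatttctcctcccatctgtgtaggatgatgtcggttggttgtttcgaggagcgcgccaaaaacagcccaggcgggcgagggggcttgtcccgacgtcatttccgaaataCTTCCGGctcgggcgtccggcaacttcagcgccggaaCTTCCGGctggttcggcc
Cox8b: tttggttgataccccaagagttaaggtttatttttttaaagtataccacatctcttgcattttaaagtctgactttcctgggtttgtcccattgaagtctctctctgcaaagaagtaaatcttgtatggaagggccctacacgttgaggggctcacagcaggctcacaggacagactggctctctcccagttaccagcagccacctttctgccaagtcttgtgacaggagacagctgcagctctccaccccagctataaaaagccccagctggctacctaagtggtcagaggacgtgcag
Ndufs3: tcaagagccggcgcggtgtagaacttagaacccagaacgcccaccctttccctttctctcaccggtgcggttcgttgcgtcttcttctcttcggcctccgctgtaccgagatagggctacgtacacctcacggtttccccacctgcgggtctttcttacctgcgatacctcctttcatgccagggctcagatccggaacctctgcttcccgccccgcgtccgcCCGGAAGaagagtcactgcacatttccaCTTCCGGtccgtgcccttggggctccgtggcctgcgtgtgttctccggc
Uqcrc1: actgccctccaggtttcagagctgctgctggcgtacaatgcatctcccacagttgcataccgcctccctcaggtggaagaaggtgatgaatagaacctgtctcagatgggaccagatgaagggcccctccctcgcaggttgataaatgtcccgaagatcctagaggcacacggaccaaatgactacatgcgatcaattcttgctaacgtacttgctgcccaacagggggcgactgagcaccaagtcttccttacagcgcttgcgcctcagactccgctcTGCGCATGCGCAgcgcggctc
Atp5g2: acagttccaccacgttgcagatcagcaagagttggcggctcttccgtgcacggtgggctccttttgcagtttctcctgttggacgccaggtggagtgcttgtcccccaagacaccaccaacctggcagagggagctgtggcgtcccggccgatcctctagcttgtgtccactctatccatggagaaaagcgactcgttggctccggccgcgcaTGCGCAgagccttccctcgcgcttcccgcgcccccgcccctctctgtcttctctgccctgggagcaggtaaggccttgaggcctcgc
Cox8a and Ndufs3 each held 2 ETS or GABP motifs, Uqcrc1 held 2 adjoining NRF1 cores and Atp5g2 held 1. The Cox8b window held none of these letters, which says nothing about the factors.

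The nuclear core of complex I, the conserved subunits of the arm that takes electrons from NADH, held 3 falls among 6 measured genes, with a median of -0.41. Ndufs3, a core subunit of the peripheral arm, lay at 11.38, 11.63, 11.40, 11.12 and 11.03 in normal replicates 1 to 5 and at 10.43 to 10.84 (median 10.57) in Rb/p53 tumours. No Rb/p53 tumour reached the lowest normal sample. The difference was -0.70 ± 0.10 (SE, adjusted p = 5.71e-05). Ndufs7, which carries the last cluster before ubiquinone, was at 13.05, 13.24, 12.88, 13.54 and 13.51 in normal tissue and at 12.49 to 12.85 in Rb/p53 tumours, a difference of -0.60 ± 0.11 (adjusted p = 0.000596). The groups did not overlap, and this gene was highest in normal replicates 4 and 5, where most other subunits were lowest. Ndufv2, which carries an iron-sulphur cluster of the NADH-oxidising module, fell by 0.41 (adjusted p = 0.00104). The other core genes did not pass: Ndufs1 was at -0.40 (adjusted p = 0.12), Ndufv1, the flavin-bearing subunit that oxidises NADH, at -0.27 (adjusted p = 0.0949), and Ndufs8 at -0.12 (adjusted p = 0.518).

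The accessory subunits of complex I surround the core and are needed for its assembly and stability. Outside the isoform Ndufa4l2, 13 of 29 fell and 0 rose, with Ndufa4 counted among the 29. The largest fall, on the brightest probe set of each gene, was that of Ndufa11 (-0.64 ± 0.16, adjusted p = 0.0069). The other probe set of Ndufa11 was at -0.36. Ndufs4, a subunit whose loss causes Leigh-like disease in mice, fell by 0.63 (adjusted p = 0.00791). Ndufb3, of the membrane arm, was at 9.43 to 9.83 in normal tissue and 8.71 to 9.16 in Rb/p53 tumours, with no overlap (-0.60 ± 0.10, adjusted p = 0.000207). Ndufab1, the mitochondrial acyl carrier protein, fell by 0.54 (adjusted p = 0.0309). Ndufa6 and Ndufa2 had values above 0, at 0.29 (adjusted p = 0.171) and 0.15 (adjusted p = 0.575).

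Complex II, which oxidises succinate and belongs to the citric acid cycle as well, was split. Sdha, its flavoprotein, was at 12.26, 12.63, 12.12, 11.94 and 11.66 in normal tissue and at 11.22 to 11.83 in Rb/p53 tumours. Normal replicate 5 lay inside the tumour range. The difference was -0.63 ± 0.15 (adjusted p = 0.00513). Sdhc, a membrane anchor, fell by 0.33 (adjusted p = 0.0299), though the call was lost in 7 of 28 alternatives. Sdhb, the iron-sulphur subunit, was at -0.26 (adjusted p = 0.287) and Sdhd, the other anchor, at 0.01 (adjusted p = 0.988).

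Complex III had the largest share of falls. Uqcrc2, one of its large core proteins, was at 12.96, 13.15, 12.97, 12.87 and 12.68 in normal replicates 1 to 5 and at 12.08 to 12.46 in Rb/p53 tumours. The groups were clearly apart, and the difference of -0.63 ± 0.08 (adjusted p = 1.68e-05) passed in all 28 alternatives. The partner core protein Uqcrc1 was at 11.63 to 12.08 in normal tissue and at 11.01 to 11.46 in Rb/p53 tumours (-0.57 ± 0.13, adjusted p = 0.00294). Cyc1, the cytochrome c1 that hands electrons to cytochrome c, fell by 0.48 (adjusted p = 0.00802), and the Rieske iron-sulphur protein Uqcrfs1 fell by 0.46 (adjusted p = 0.0316). Uqcr11, a small subunit, had the largest difference of the complex (-0.81 ± 0.26, adjusted p = 0.0301), on a normal spread from 9.65 to 11.32. That range took in every Rb/p53 tumour above 9.65, and the call was lost without normal replicate 1, 2 or 3. Uqcrq, Uqcrh and Uqcr10 did not pass, at -0.52, -0.21 and -0.07.

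In complex IV, cytochrome c oxidase, the isoform genes Cox8b and Cox7a1 had the largest falls in Rb/p53 tumours. Cox8b, the isoform of subunit 8 found in muscle and brown fat of mice, was at 12.49, 13.04, 11.73, 11.99 and 11.20 in normal replicates 1 to 5. It was at 7.18, 7.69 and 7.27 in the p53 tumours and at 7.03 to 7.39 (median 7.14) in the Rb/p53 tumours. Every tumour lay several log2 units under every normal sample. The difference was -4.92 ± 0.21 in Rb/p53 tumours (30.4-fold lower, adjusted p = 1.89e-11) and -4.71 ± 0.28 in p53 tumours (26.2-fold lower, adjusted p = 2.6e-09), and it passed in all alternatives of both. In the tumours Cox8b ranked between the 36.2 and 46.4 percentile of the probe sets of its array, and in normal tissue between 93.0 and 98.8. Without detection calls its tumour level is not shown to lie above background, so both folds are best read as lower bounds. Cox8a, the widely used isoform, was at 12.33 to 12.54 in normal tissue and at 11.86 to 12.49 in Rb/p53 tumours, with overlap (-0.35 ± 0.10, adjusted p = 0.0142). In p53 tumours it was at -0.22 (adjusted p = 0.235).

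Cox7a1, the muscle and brown fat isoform of subunit 7a, was at 9.04, 10.94, 9.09, 8.58 and 8.06 in normal replicates 1 to 5 and at 7.56 to 8.30 in Rb/p53 tumours. Normal replicate 2 stood highest and normal replicate 5 lay among the tumours. The fall was 1.28 ± 0.32 on the log2 scale in Rb/p53 tumours (adjusted p = 0.00606). In p53 tumours, at 7.58, 8.13 and 7.97, it was -1.25 ± 0.42 (adjusted p = 0.0434), and that call was lost in 17 of 26 alternatives. Cox7a2, its widely used partner, was at -0.24 (adjusted p = 0.396) and -0.11 (adjusted p = 0.774) in the same comparisons. The other isoform genes did not pass in either comparison: in Rb/p53 tumours Cox4i2, linked to low oxygen, was at -0.28 (adjusted p = 0.0536), Cox6a2, of heart and skeletal muscle, at -0.14, Cox6b2 at -0.23, Cox8c at -0.03, and Cox7b2 at 0.08. Cox7b2 lay between the 7.6 and 11.0 percentile on all arrays, so its values say little.

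**Figure D3:**
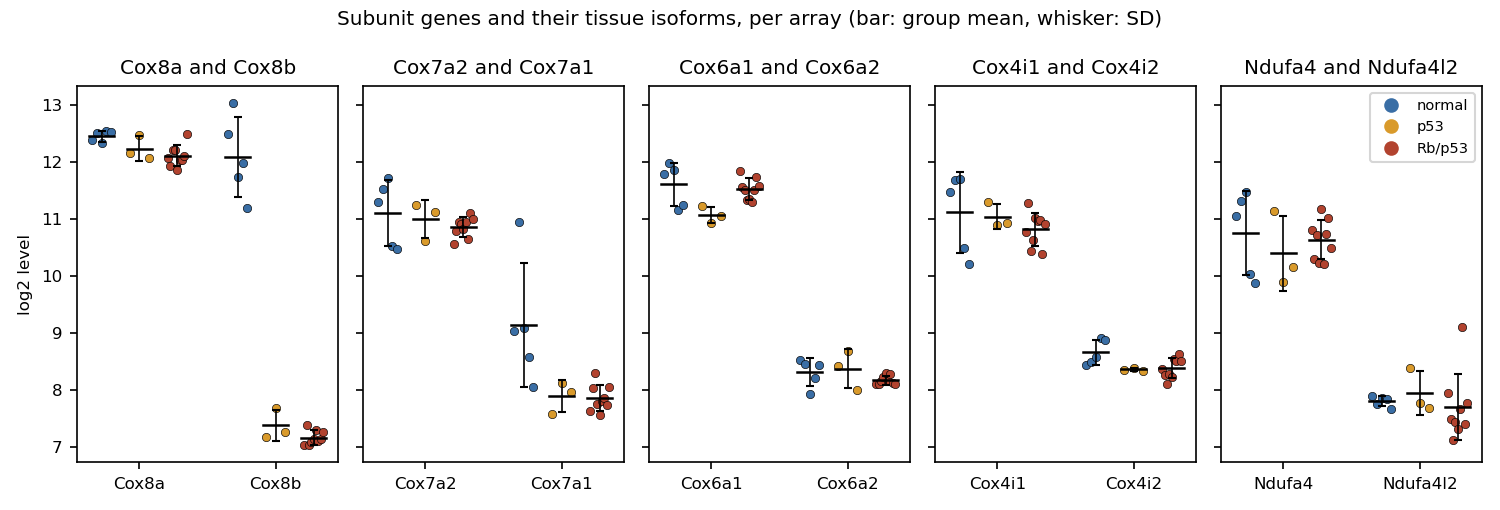
Log2 level per array of 5 subunit genes and the tissue isoform of each, in normal tissue (n = 5), p53 tumours (n = 3) and Rb/p53 tumours (n = 9); bars are means and whiskers SD. Levels of different probe sets are not comparable, so only the groups within a gene should be read against each other. Cox8b drops from 11.20 or more in normal tissue to 7.69 or less in tumours, and Cox7a1 is high in normal replicate 2.

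Marker lists of other tissues also differed between tumours and normal tissue. The brown adipocyte list holds Cox7a1 and Cox8b themselves, both called lower, so its counts and means are in part theirs. It had 8 of 13 genes called lower and 1 higher in Rb/p53 tumours. Its mean level was 8.80, 9.96, 8.50, 8.64 and 8.14 in normal replicates 1 to 5, against 7.33 to 7.97 in Rb/p53 tumours and 7.28 to 7.50 in p53 tumours. Ucp1, the uncoupling protein that defines brown and beige fat, was at 8.80, 11.68, 7.29, 8.52 and 6.94 in normal tissue and at 6.26 to 6.84 in all tumours. Dio2, of the same list, went the other way, at 7.63 to 7.92 in normal tissue and 7.52 to 10.20 in Rb/p53 tumours. Of the 13 genes 11 had differences below 0 in Rb/p53 tumours and 2 above. The general adipocyte list fell in 16 of 16 genes, from 12.48 to 12.94 in normal tissue to 7.85 to 8.84 in Rb/p53 tumours and 7.74 to 8.57 in p53 tumours. The skeletal muscle list fell in 14 of 19 genes, from 9.39, 9.58, 7.56, 7.62 and 8.50 in normal replicates 1 to 5 to 7.08 to 7.58. The luminal epithelial list, at 10.52 to 10.63 in normal tissue and 8.15 to 9.66 in Rb/p53 tumours, fell in 13 of 17 genes, and the proliferation list rose in 13 of 16. The part of these cell types in the respiratory chain result was not tested. With all 8 tissue isoforms set aside, 34 of 75 genes fell and 1 rose, with a median of -0.27.

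Of the widely used subunits of complex IV, Cox6b1, on the outer face of the enzyme, had the largest difference. It was at 12.13, 12.50, 12.34, 11.47 and 11.21 in normal tissue and at 10.90 to 11.21 in Rb/p53 tumours, just short of overlap (-0.87 ± 0.20, adjusted p = 0.00356). Cox7b fell by 0.40 (adjusted p = 0.00045) and Cox5b, a zinc-binding subunit facing the matrix, by 0.40 (adjusted p = 0.00723). Cox4i1, Cox5a and Cox6a1 were at -0.30 (adjusted p = 0.404), -0.06 (adjusted p = 0.848) and -0.08 (adjusted p = 0.737).

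Complex V is given by its parts, whose differences from each other were not tested. The F1 part, which carries the catalytic sites, held 3 falls among 5 genes: Atp5e (-0.69 ± 0.12, adjusted p = 0.000254), Atp5b, the catalytic beta chain (-0.40 ± 0.08, adjusted p = 0.00109), and Atp5d (-0.28 ± 0.08, adjusted p = 0.0157). Atp5e was at 10.30, 10.43, 10.57, 9.89 and 9.95 in normal tissue and at 9.34 to 9.74 in Rb/p53 tumours, without overlap. Atp5a1, the alpha chain, and Atp5c1, the gamma chain, did not pass, at -0.14 (adjusted p = 0.367) and -0.25 (adjusted p = 0.159). The 4 genes of the peripheral stalk held 0 calls, with a median of -0.04, and in the membrane part Atp5k (-0.53) and Atp5md (-0.40) fell among 5 genes. In p53 tumours the F1 part held 3 falls, the peripheral stalk 2 of 4 (Atp5h and Atp5j, median -0.32), the membrane part 2 of 5 and the c ring 0 of 3.

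The ring of c subunits, which turns as protons pass, is encoded by 3 genes for the same mature protein, and these moved apart. Atp5g2 was at 12.53, 12.50, 12.61, 12.10 and 12.15 in normal replicates 1 to 5 and at 12.59 to 12.96 in Rb/p53 tumours. Only normal replicate 3 reached the lowest of those tumours. It was the 1 respiratory chain gene that rose (0.41 ± 0.11, adjusted p = 0.00819). The call was lost after cyclic loess normalisation and with the 2 tumours of primary hosts alone. Atp5g3 fell by 0.48 (adjusted p = 0.04), a call lost in 11 of 28 alternatives, and Atp5g1 was at 0.21 (adjusted p = 0.181).

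The normal samples differed among themselves more than the Rb/p53 tumours did in most of these genes. Of the 83 genes 38 were highest among normal samples in replicate 2 and 29 in replicate 3, while 47 were lowest in replicate 5. Without the tissue isoforms the mean level was 11.15, 11.40, 11.35, 10.93 and 10.85 in replicates 1 to 5, against 10.73 to 10.94 in Rb/p53 tumours, so replicates 4 and 5 lay near the tumours. Ndufa4, now assigned to complex IV, was among the genes that varied, at 11.06, 11.32 and 11.49 in normal replicates 1 to 3 and 10.04 and 9.88 in replicates 4 and 5. Cox4i1 did the same, at 11.48, 11.69 and 11.71 and then 10.50 and 10.22. For both genes the Rb/p53 tumours, at 10.21 to 11.17 and 10.39 to 11.28, fell inside the normal range. Without normal replicate 2 or without replicate 3, 28 genes were called lower in Rb/p53 tumours, with the share of all genes in those fits not given here.

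**Figure D4:**
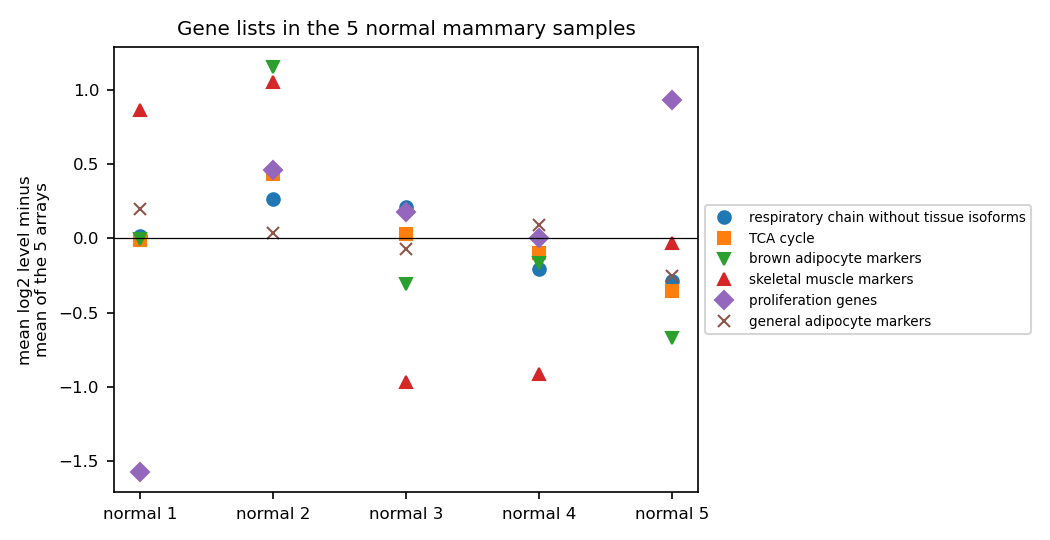
Mean log2 level of 6 gene lists in each of the 5 normal mammary samples, as the difference from the mean of the 5. Respiratory chain genes and citric acid cycle genes are high in replicate 2 and low in replicate 5, brown adipocyte markers are high in replicate 2, skeletal muscle markers are high in replicates 1 and 2, and the general adipocyte markers stay within 0.26 of their mean.

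Against the same normal samples, p53 tumours also had lower respiratory chain genes: 31 of 83 fell and 1 rose, where 12.1% of all genes were called lower and 8.34% higher. The median was -0.32, beside 0.09 over all genes. By complex 13 of 36, 1 of 4, 5 of 9, 5 of 17 and 7 of 17 genes fell from complex I to complex V. The arrays did not overlap in 27 genes downward and 1 upward, against 13.5% and 9.87% of all genes. Without p53 replicate 2, 24 fell and 1 rose, and without p53 replicate 3, 24 fell and 2 rose. With the fit limited to the 8 arrays compared, 17 fell and 0 rose, and with each array centred on its median 15 fell and 3 rose. The shares of all genes called under these alternatives are not given here, so the counts do not show a change particular to these genes. This comparison and the preceding one share the normal samples, so agreement between them is not independent evidence. Marker lists moved here too: 16 of 16 general adipocyte, 7 of 13 brown adipocyte, 6 of 19 skeletal muscle, 12 of 17 luminal epithelial and 5 of 10 endothelial genes fell. The 7 brown adipocyte genes include Cox7a1 and Cox8b. Of the macrophage genes 9 of 12 rose (median 1.21). The part of these cell types in the result was not tested.

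Ndufab1 was the complex I gene with the largest difference in p53 tumours, at 9.84, 8.82 and 9.77 in replicates 1 to 3 against 10.12 to 11.03 in normal tissue. All 3 tumours lay below the normal samples, and p53 replicate 2 was far the lowest. The difference was -1.09 ± 0.23 (adjusted p = 0.00313), and -0.76 (adjusted p = 0.0185) without replicate 2. Ndufv1 was at 10.35, 10.15 and 10.80 against 11.16 to 11.63, a difference of -0.89 ± 0.15 (adjusted p = 0.000479). It was -0.75 (adjusted p = 0.00323) without replicate 2. Ndufc1, a small membrane-arm subunit, fell by 0.83 (adjusted p = 0.0039), and the core subunit Ndufs7 fell by 0.72 (adjusted p = 0.00201). Ndufs3 fell by 0.39 (adjusted p = 0.045), a call lost in 17 of 26 alternatives.

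Sdha was at 10.93, 10.89 and 11.49 in the p53 tumours (-1.02 ± 0.20, adjusted p = 0.00158), below all normal samples, and at -0.91 without replicate 2. Uqcrc1 was at 10.68, 10.74 and 11.43 (-0.88 ± 0.17, adjusted p = 0.0013), and Uqcrc2 at 12.17, 12.10 and 12.17 (-0.78 ± 0.11, adjusted p = 5.35e-05). Cyc1 fell by 0.63 (adjusted p = 0.0117), a call that rested on replicate 2, at 10.25 against 11.03 and 11.05: without it the difference was -0.37 (adjusted p = 0.0596). Atp5e fell by 0.95 (adjusted p = 0.000268) and Atp5md by 0.91 (adjusted p = 0.00108).

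The 1 gene that rose in p53 tumours was Cox7a2l, a relative of subunit 7a that helps complexes III and IV join into supercomplexes. It was at 9.75, 10.27 and 9.48 in p53 replicates 1 to 3 and at 9.31, 9.21, 9.43, 8.99 and 8.89 in normal tissue. The groups did not overlap, by a narrow margin for replicate 3. The difference was 0.67 ± 0.16 (adjusted p = 0.00686), 0.45 (adjusted p = 0.0378) without replicate 2, and the call was lost when the fit was limited to the 8 arrays compared. In Rb/p53 tumours it was at 0.06 (adjusted p = 0.784). Its other, dimmer probe set was at 0.31 there and at 0.87 in p53 tumours, each relative to normal tissue.

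Between the tumour genotypes no respiratory chain gene differed by the test: 0 of 83 passed in limma, where 0% of all genes were called higher and 0.00502% lower in Rb/p53 tumours. An unadjusted p below 0.05 was found in 4117 of all 19938 genes and in 17 of the 83, a like share. The median difference was 0.01, with 42 genes above 0 and 41 below, and its sign changed with the normalisation (-0.13 after cyclic loess). The intervals were wide. Ndufb6 had the largest value, 0.73 ± 0.26 (adjusted p = 0.181), and Ndufa11 the lowest, -0.63 ± 0.18 (adjusted p = 0.147). The other probe set of Ndufa11 was at -0.41. This comparison hung on p53 replicate 3, whose labels conflict. With it left out 7 genes were higher and 9 lower in Rb/p53 tumours (4.25% and 2.56% of all genes), and with it moved to the Rb/p53 tumours 8 were higher and 9 lower (5.58% and 4.67%). Both fits leave only p53 replicates 1 and 2, so they rest in part on replicate 2, the array that correlated less with the others. Values of single genes without replicate 2 are not given for this comparison.

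**Figure D5:**
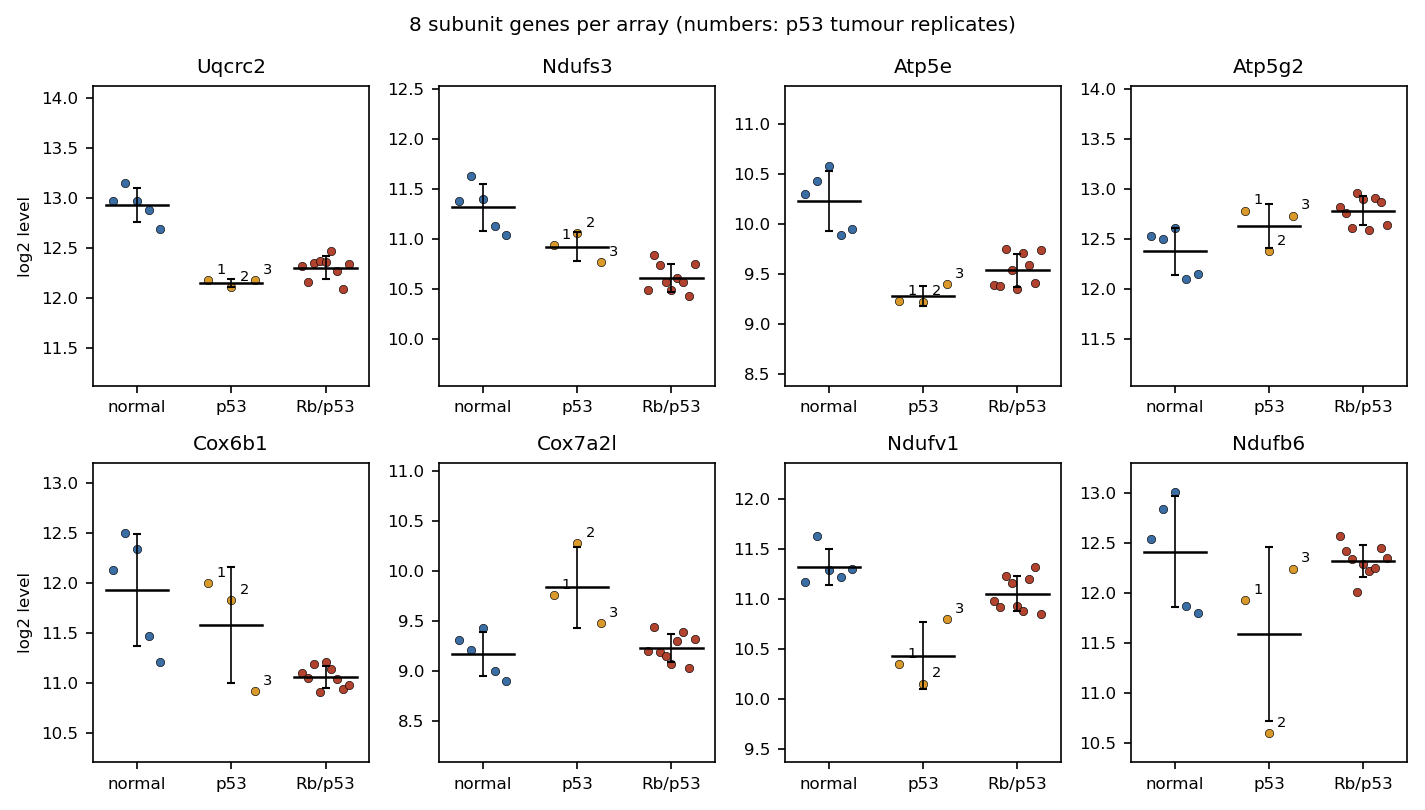
Log2 level per array of 8 subunit genes in normal tissue, p53 tumours (points numbered by replicate) and Rb/p53 tumours; bars are means, whiskers SD, and every panel spans 3 log2 units. In the upper row Uqcrc2, Ndufs3 and Atp5e are lower and Atp5g2 is higher in Rb/p53 tumours, each relative to normal tissue. In the lower row p53 replicate 3 lies nearer to the Rb/p53 tumours than replicates 1 and 2 do.

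The genes behind those counts went both ways. Cox6b1 was at 11.99, 11.83 and 10.91 in p53 replicates 1 to 3, against 10.90 to 11.21 in Rb/p53 tumours. Only replicate 3 lay among the Rb/p53 tumours, and the difference was -0.52 ± 0.18 (adjusted p = 0.178) with it and -0.85 ± 0.11 (adjusted p = 0.00657) without it. Ndufb2, of the membrane arm, was at 8.30, 8.12 and 6.96, against 7.07 to 7.55, with -0.85 (adjusted p = 0.0139) without replicate 3. Uqcr11 was at 10.48, 10.92 and 9.35 (-0.995 without replicate 3, adjusted p = 0.0255). Sdhb, at 11.31, 11.02 and 10.77 against 10.10 to 10.72, did not overlap in any replicate (-0.60 ± 0.14, adjusted p = 0.114, and -0.73, adjusted p = 0.0266, without replicate 3).

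Ndufv1 was higher in all 9 Rb/p53 tumours, at 10.85 to 11.32, than in p53 replicates 1 to 3, at 10.35, 10.15 and 10.80. The difference was 0.62 ± 0.14 (adjusted p = 0.114) and 0.80 ± 0.14 (adjusted p = 0.0169) without replicate 3. Ndufb6 was at 11.92, 10.60 and 12.24, against 12.01 to 12.57, and the large value without replicate 3 (1.06, adjusted p = 0.038) came with replicate 2 far below replicate 1. Uqcrc1, Cox5b, Atp5d, Atp5j and Atp5md made up the other higher genes without replicate 3, at 0.38 to 0.74. Ndufa11, Cox7a2l, Atp5l, Atp5mpl and Cox6a2 made up the other lower ones. With all 17 arrays in the fit, Ndufv1 was called higher and Cox7a2l lower.

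Lists of other genes were also set side by side between the tumour groups, with 0 genes called in each of those given here. The macrophage list had 12 of 12 values below 0, and its mean level was 11.23, 12.78 and 11.99 in p53 replicates 1 to 3 and 10.77 to 11.69 in Rb/p53 tumours, so that replicates 2 and 3 stood above that range. The proliferation list had 16 of 16 values above 0 (median 0.69), at 11.06, 8.91 and 10.82 in the p53 tumours and 10.59 to 11.13 in Rb/p53 tumours, with replicate 2 alone below. The T and NK cell list had 7 of 11 values below 0, against 10795 of all 19938 genes. An unadjusted p below 0.05 was found in 7 of its 11 genes, against 4117 of all genes. The part of these cells in the differences between tumours was not tested.

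Within the Rb/p53 tumours, how Cre was delivered and the host left no call among these genes. Between Ad-Cre (n = 2) and MMTV-Cre tumours (n = 7) 0 of 83 passed (0.00502% of all genes were called higher and 0% lower). An unadjusted p below 0.05 was found in 412 of all 19938 genes and in 0 of the 83. The median was 0.06, beside -0.02 over all genes. Of the 83 values 61 were above 0, as were 8857 of all 19938. Between transplanted (n = 5) and primary-host (n = 2) MMTV-Cre tumours 0 of 83 passed (0.00502% of all genes called higher and 0.0201% lower), with a median of -0.01. In this comparison 1579 of all 19938 genes and 9 of the 83 had an unadjusted p below 0.05. Ndufa3 had the smallest p there, at 0.43 ± 0.13 (adjusted p = 0.592).

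Genes that serve the chain were followed by list. Of the citric acid cycle and pyruvate dehydrogenase genes, which supply NADH, 9 of 17 fell in Rb/p53 tumours and 12 of 17 in p53 tumours, with 0 rises and medians of -0.55 and -0.85. In Rb/p53 tumours the largest falls were those of Pdhb (-1.06, adjusted p = 0.000367), of pyruvate dehydrogenase, and Cs, citrate synthase (-0.83, adjusted p = 4.09e-05). Of 14 electron carrier genes 7 and 8 fell, led in both tumour groups by Etfb, an electron transfer flavoprotein for fatty acid oxidation (-1.45 in each; adjusted p = 9.71e-09 and 5.89e-07). Cycs, cytochrome c itself, fell by 0.73 in Rb/p53 tumours (adjusted p = 0.00109).

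Assembly factors are read against the 13.4% of all genes called lower and 14.2% called higher in Rb/p53 tumours. In p53 tumours these shares were 12.1% and 8.34%. Of the complex I factors 3 of 15 fell in Rb/p53 tumours, near the 13.4%, led by Ndufaf1 (-0.80, adjusted p = 0.033). In p53 tumours 7 of 15 fell. Of the complex IV factors 2 of 23 fell and 2 rose in Rb/p53 tumours, below the shares there, with Cmc2 up by 0.81 (adjusted p = 0.00309) and Cox20 down (-0.62, adjusted p = 0.00133). In p53 tumours 5 of the 23 fell and 0 rose. Of the factors of complexes II, III and V, 2 of 4, 1 of 6 and 2 of 5 fell in Rb/p53 tumours, and 1, 1 and 0 rose. Regulators of mitochondrial biogenesis were divided in Rb/p53 tumours, with 5 of 16 higher and 5 lower. There the coactivator Ppargc1a fell by 1.51 (adjusted p = 0.00049), while Pprc1 was up by 0.54 (adjusted p = 0.0304) and Gabpa by 0.39 (adjusted p = 0.0233). In p53 tumours 4 of the 16 were lower and 0 higher. Of the glycolysis and hypoxia genes 7 of 19 rose in Rb/p53 tumours and 4 of 19 in p53 tumours, and 0 fell. Pgk1, a glycolytic kinase, rose by 1.54 (adjusted p = 1.89e-05) and the glucose transporter Slc2a1 by 1.50 (adjusted p = 2.3e-05) in Rb/p53 tumours.

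A pair of subunits encoded by mitochondrial DNA could be set beside the nuclear ones, and were chosen after their values were seen. In Rb/p53 tumours mt-ND3 of complex I fell by 0.38 (adjusted p = 0.000804) and mt-COX2 of complex IV fell by 0.27 (adjusted p = 0.0174). In p53 tumours they were at -0.27 (adjusted p = 0.0575) and -0.15 (adjusted p = 0.304).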

How the data were processed

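Per the labels, total RNA was hybridised to Affymetrix Mouse Gene 1.0 ST arrays, 1 per sample. The authors deposited log2 values for 35556 probe sets, made by RMA in Partek 5.6 per the submitters' processing notes; further settings were not given in the sources used here. RMA commonly makes arrays share 1 distribution, but the deposited arrays did not fully do so: their interquartile range ran from 2.39 to 3.18. A shift of most genes may be lost in part, and no depth or detection call accompanies the values.

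Probe sets with exactly 1 symbol stood for genes; where several shared a symbol (17 of the 83 genes) the brightest was kept, which left 19938 genes. Groups were compared in R 4.3.3 with limma 3.58.1 (lmFit, eBayes), tested on simulated data, with Benjamini-Hochberg adjustment over all genes and a threshold of 0.05. Comparisons with normal tissue used all 17 arrays, and Rb/p53 against p53 and Ad-Cre against MMTV-Cre the 12 tumour arrays. The transplant comparison used the 7 MMTV-Cre Rb/p53 arrays. No filter on low values was applied (82 of the 83 genes pass one at the 25th percentile). Named genes are the largest called changes of each complex, core subunits, isoform sets and, per pathway list, up to 2 called genes in each direction; other genes were named after their values were seen. The members and lists were chosen with earlier results of these data known. Alternatives varied the normalisation, variance model, filter, probe set rule, fold and arrays used. The spread behind each p is that between separate tumours or glands.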

Additional observations from a re-analysis of the deposited data

Results flagged for a closer look

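Of 178 sets of values tested for a sample far from the others, 4 stood out, all among the 9 Rb/p53 tumours (gap over range above 0.493); chance marks about 1 in 20 groups. Ndufa4l2, a relative of Ndufa4 linked to low oxygen, was at 9.11 in MMTV-Cre replicate 7 and at 7.13 to 7.94 in the rest (gap over range 0.591). Atp5d was highest in MMTV-Cre replicate 6, at 13.66 against 13.35 to 13.47 (0.605). Atp5h, of the peripheral stalk, was highest in MMTV-Cre replicate 5, at 12.63 against 12.07 to 12.33 (0.538). Atp5j2 was lowest in MMTV-Cre replicate 2, at 11.27 against 11.52 to 11.72 (0.554).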

How the results depend on the processing

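In Rb/p53 tumours against normal tissue, 1 gene rose and 36 fell. A fold of at least 0.5 log2 left 0 and 19, the tumours of primary hosts alone 0 and 5 (Atp5e, Cox8b, Ndufa3, Ndufc1 and Uqcrc2), and cyclic loess 0 rises with 47 falls. Leaving out 1 array gave 28 to 38 falls. In p53 tumours against normal tissue, 1 rose and 31 fell. Centring each array on its median, which moved the median of all genes from 0.09 to 0.26 (between tumour genotypes from -0.03 to -0.14), gave 3 and 15. Using only the arrays compared gave 0 and 17, counting p53 replicate 3 as an Rb/p53 tumour gave 2 rises, and a fold of at least 0.5 log2 left 19 falls. Leaving out 1 array gave 1 to 2 rises and 22 to 35 falls. Between Rb/p53 and p53 tumours, leaving out 1 array gave 0 to 7 higher and 0 to 9 lower, the highest of each without p53 replicate 3. Moving that array gave 8 and 9, and all 17 arrays in the fit gave 1 and 1. The cause of these shifts was not tested, apart from the fold rule, which can only remove calls. The share of all genes called can change with the setting as well, and is not given beside these counts. No called gene changed sign in any alternative. No paired analysis was possible because the labels give no replicate numbers shared between groups. The number of arrays limits the precision, above all for p53 tumours (n = 3) and Ad-Cre tumours (n = 2).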
